A study of Mus musculus with 2 samples.

Results

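Macrophages have more than a single way to make superoxide, the radical from which hydrogen peroxide and other reactive oxygen species are formed. The phagocyte NADPH oxidase passes electrons from NADPH across a membrane to oxygen: a catalytic subunit and its stabilising partner sit in the membrane, and cytosolic subunits join them when a microbe is met. Xanthine dehydrogenase turns hypoxanthine into xanthine and xanthine into uric acid in purine breakdown, and a modified oxidase form of the same enzyme hands its electrons to oxygen. Described here is the RNA of 4 oxidase subunit genes, Cybb, Cyba, Ncf1 and Ncf4, and of the xanthine dehydrogenase gene, Xdh, 5 of 55536 annotated mouse genes. They were chosen by gene symbol in the GENCODE M21 annotation and matched by identifier in each deposited table.

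The material was RNA of the chromatin fraction of macrophages grown from bone marrow of C57BL/6J mice. This fraction is rich in RNA still being made at its template. The cells were taken at 0 minutes of lipid A (100 ng/ml), the endotoxin part sensed by Toll-like receptor 4, and ribosomal RNA was depleted before sequencing. There were 2 biological replicates in 1 group; replicate 1 started from 250 ng and replicate 2 from 500 ng. The labels give both the same donor entry, with sex and age not collected, so the spread between them may be smaller than that between animals, and no treated group was compared. The gene tables held 10970767 expected counts in replicate 1 and 14207280 in replicate 2. Levels are in TPM (transcripts scaled to a fixed sum per table), which divides counts by effective length, and are the mean ± SD of 2 libraries (n = 2) unless values are given per library. Coordinates are on mm10.

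The cells carried macrophage markers in both libraries. All 10 macrophage markers reached 1 TPM, the level taken as detected, led by Lyz2 (lysozyme, 176 ± 20.6 TPM) and Csf1r (the CSF1 receptor, 173 ± 16.9 TPM), with Cd14 lowest at 8.23 ± 1.06 TPM. Neutrophils make the same oxidase, and 0 of 12 neutrophil markers were detected in the gene table. Their summed level was 2.67 TPM in replicate 1 and 1.26 TPM in replicate 2, and Mpo, Elane, Ctsg, Camp and Ly6g had no read. Mmp8 and Prtn3 were the highest by mean. In replicate 1 the highest was S100a9, at 0.71 TPM, which had no read in replicate 2. Xdh is known from epithelium and endothelium, and all 6 epithelial markers, Epcam and Krt8 among them, had no read. Of 6 endothelial markers, 2 were detected, Vwf (50.7 ± 0.983 TPM) and Kdr (2.54 ± 0.87 TPM), while Cdh5 had no read. The second transcript table, described with Cyba, put 2 neutrophil markers (Mpo and Cxcr2) and 3 endothelial markers over 1 TPM, and none of the epithelial ones; these were named after their values were seen. None of the 5 B cell markers was detected in either table. The summed B cell level in the gene table was 0.26 TPM in replicate 1 and 0.39 TPM in replicate 2, with Cd79a and Ms4a1 highest by mean and Pax5 at no read. The part of other cells in the values was not tested, and in such bulk RNA fewer cells of a type and less RNA per cell cannot be told apart.

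All 5 genes were detected in both libraries, as were 46.7% of the 22015 nuclear protein-coding genes in the gene table and 55.5% in the second. Xdh stood apart from the oxidase genes. It was at 695 TPM in replicate 1 and 556 TPM in replicate 2, which placed it at rank 13 of the nuclear protein-coding genes by mean TPM. The 4 oxidase genes lay between 36.7 and 69.3 TPM over both libraries, at ranks 789 to 1531. In the gene table Xdh was 11.5 to 15.3 times as high as each oxidase gene in replicate 1, and 8.03 to 15.2 times in replicate 2. In the second table Xdh was 6.24 to 11.9 times as high in replicate 1 and 5.69 to 12.2 times in replicate 2. Its lowest library was far above the highest oxidase value.

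**Figure D1:**
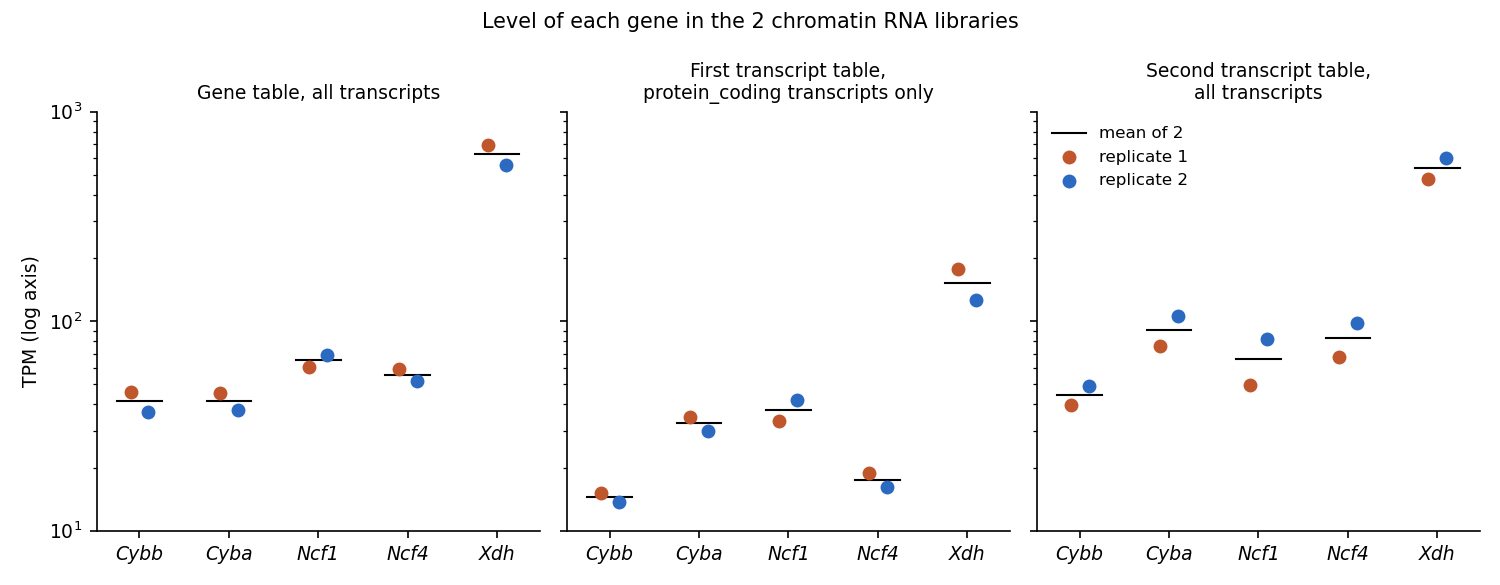
Level of each gene in TPM on a log axis, with 1 point per library and a line at the mean of 2, from the gene table, from the protein_coding transcripts of the first transcript table, and from the second transcript table. Xdh is the highest in each panel, and the order of the 4 oxidase genes below it differs between panels.

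Cybb encodes the catalytic subunit of the oxidase, also called gp91phox or Nox2, which carries the haem groups and binds FAD and NADPH. The gene lies on the minus strand of chromosome X, from 9435252 to 9487771 (ENSMUSG00000015340.10). It held 866 expected counts in replicate 1 and 1151 in replicate 2, and its level was 46.1 TPM in replicate 1 and 36.7 TPM in replicate 2 (41.4 ± 6.66 TPM). The full coding transcript Cybb-201, with 13 exons and 4752 bases, took 82.4 ± 1.57% of those counts. It gave only 32.7% and 37.5% of the gene's TPM in replicates 1 and 2, because dividing by length weights short transcripts more. The rest lay almost wholly on 2 short transcripts of the annotated class retained_intron. Cybb-202, which ends 656 bases into intron 3, took 12.3 ± 0.05% of counts, and Cybb-203, which holds parts of introns 6 and 8, took 6.08% in replicate 1 and 4.13% in replicate 2. On its coding transcripts alone Cybb stood at 15.1 TPM in replicate 1 and 13.7 TPM in replicate 2, the lowest of the 5 genes.

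Spliced and unspliced Cybb RNA part at the end of exon 3. Below, small letters are the last 20 bases of that exon and capitals are the next 20 bases of each transcript, 5′ to 3′, from the GENCODE M21 transcript sequences; the read-through stretch is chrX:9465624-9465663, minus strand.
Cybb-201 spliced: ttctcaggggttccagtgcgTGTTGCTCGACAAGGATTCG
Cybb-202 read-through: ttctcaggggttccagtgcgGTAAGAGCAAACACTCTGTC
The capitals of Cybb-202 open with the GT of a donor splice site, so a read that crosses this point can be told from spliced RNA.

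Cyba encodes p22phox, the membrane partner that holds the catalytic subunit stable and gives the cytosolic subunits their docking site. It lies on the minus strand of chromosome 8, from 122424776 to 122432930 (ENSMUSG00000006519.11), and is short, at 8155 bases. The gene table gave it 231 expected counts in replicate 1 and 284 in replicate 2, for 45.5 TPM in replicate 1 and 37.7 TPM in replicate 2 (41.6 ± 5.52 TPM). Cybb and Cyba, whose proteins pair with each other, overlapped in level and could not be ordered in this table. Of Cyba counts 79.5 ± 0.48% lay on the coding transcript Cyba-201 and 19.7 ± 1.66% on Cyba-203, a transcript of the class processed_transcript that holds an extra stretch of 295 bases inside intron 1. No Cyba transcript is annotated as retained_intron.

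The level of Cyba depended on the table. The second transcript table, made from the reads with an index of the same transcripts, gave it 900 counts in replicate 1 and 1174 in replicate 2, or 4.03 times the counts of the gene table. Over 9105 nuclear protein-coding genes averaging 50 counts or more the median of this ratio was 1.71, and 28.0% of genes reached 2-fold. Of the 5 genes 2 did, Cyba and Ncf4 (2.59 times). With TPM of both tables rescaled to the nuclear protein-coding genes, 0 of the 5 reached 2-fold, beside 5.86% of 9109 genes, and Cyba was at 1.79 times. The extra Cyba counts fell on each transcript: Cyba-203 had 429 and 551 counts in replicates 1 and 2, against 48.1 and 52.5 in the first transcript table, and Cyba-202, which lacks exon 4, had 156 and 223, against 0 and 4.74. In TPM the second table put Cyba at 76.4 in replicate 1 and 105 in replicate 2 (90.8 ± 20.3 TPM). The whole of Cyba lies inside Gm20388, an annotated gene of the opposite strand, which held 0.87 counts in replicate 1 and 178 in replicate 2 in the gene table, and 358 and 338 in the second table. Its part in the Cyba values was not tested, and the sources do not say whether the libraries keep strand.

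Ncf1 encodes p47phox, the cytosolic organiser that is phosphorylated on activation and carries the other cytosolic subunits to the membrane. It lies on the minus strand of chromosome 5, from 134220053 to 134229625 (ENSMUSG00000015950.13). It held 1023 expected counts in replicate 1 and 1842 in replicate 2, and its level was 60.5 TPM in replicate 1 and 69.3 TPM in replicate 2 (64.9 ± 6.16 TPM), the highest of the 4 oxidase genes in the gene table. It was the only gene of the 5 with a higher TPM in replicate 2 than in replicate 1 in that table. The coding transcript Ncf1-202 took 57.3 ± 0.16% of counts. Ncf1-205, also annotated as protein_coding although it keeps the whole of intron 10 (161 bases), took 28.5% in replicate 1 and 31.8% in replicate 2. The retained_intron transcripts Ncf1-203 (7.81 ± 0.07%) and Ncf1-204 (5.85% in replicate 1 and 2.70% in replicate 2) hold parts of introns 2 and 1. Ncf1-205 thus makes the annotated class a poor guide for this gene: 12.5 ± 2.56% of counts were on transcripts not annotated as protein_coding, and 42.3 ± 0.35% on transcripts that hold bases of a Ncf1-202 intron. The second measure was chosen after the transcripts were seen.

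The letters at the end of exon 10 show the difference, with small letters for the exon and capitals for what follows it; the read-through stretch is chr5:134222010-134222049, minus strand.
Ncf1-202 spliced: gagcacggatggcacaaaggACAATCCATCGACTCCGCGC
Ncf1-205 read-through: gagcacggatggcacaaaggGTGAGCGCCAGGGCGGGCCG
Part of this gene, 4303 bases at its 3′ end, overlaps Gtf2ird2 on the opposite strand. Intron 10, which sets Ncf1-205 apart from Ncf1-202, lies within that stretch. Gtf2ird2 held 410 expected counts in replicate 1 and 568 in replicate 2, fewer than Ncf1 in both, and its part in the Ncf1 values was not tested.

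Ncf4 encodes p40phox, whose PX domain binds the lipid phosphatidylinositol 3-phosphate on phagosomes. It lies on the plus strand of chromosome 15, from 78244801 to 78262580 (ENSMUSG00000071715.12). It held 381 expected counts in replicate 1 and 469 in replicate 2, for 58.8 TPM in replicate 1 and 51.5 TPM in replicate 2 (55.2 ± 5.14 TPM). The coding transcript Ncf4-201 took 61.6 ± 2.28% of counts. The 4 retained_intron transcripts took the rest but for Ncf4-203, at 1.07 ± 0.34%: Ncf4-205 had 19.2% in replicate 1 and 12.9% in replicate 2, Ncf4-206 had 11.4 ± 1.11%, Ncf4-204 had 4.98 ± 0.27% and Ncf4-202 had 4.91 ± 1.13%. At 37.3 ± 1.94% their summed share was the highest retained_intron share of the 4 oxidase genes. Counted over transcripts that hold intron bases, the Ncf1 share was higher, at 42.3 ± 0.35%. In the second table Ncf4 was at 67.7 TPM in replicate 1 and 98.2 TPM in replicate 2 (82.9 ± 21.5 TPM).

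The order of the oxidase genes below Xdh was therefore not fixed. In the gene table it ran Ncf1, Ncf4, Cyba, Cybb. Ncf1 was 1.03 times Ncf4 in replicate 1 and 1.34 times in replicate 2, and Cyba was 0.988 times and 1.03 times Cybb, so neither pair of neighbours was resolved. Ncf4 lay above Cyba in both libraries, by 1.29 and 1.37 times. In the second table Cyba came first and Ncf4 next, and Ncf1 was 0.650 times Cyba in replicate 1 and 0.780 times in replicate 2. On protein_coding transcripts alone, in the first transcript table, the order by mean was Ncf1 (37.6 ± 5.97 TPM), Cyba (32.5 ± 3.55 TPM), Ncf4 (17.5 ± 1.97 TPM) and Cybb (14.4 ± 0.933 TPM). Ncf1 and Cyba were not resolved: Cyba was higher in replicate 1 (35.0 against 33.4 TPM) and Ncf1 in replicate 2 (41.9 against 30.0 TPM). The Ncf1 value includes Ncf1-205, which keeps intron 10. Ncf1-202 alone was at 22.8 and 27.5 TPM in replicates 1 and 2, below Cyba-201 at 35.0 and 29.2 TPM. In the second table this class put Cyba above Ncf1 in both libraries (39.2 against 20.8 and 54.8 against 37.4 TPM). Cybb was the lowest by mean in the gene table, in the second table and on the protein_coding transcripts of the first transcript table.

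Xdh lies on the minus strand of chromosome 17, from 73883895 to 73950196 (ENSMUSG00000024066.9), and is the longest of the 5 genes at 66302 bases. It held 28186 expected counts in replicate 1 and 36678 in replicate 2, which were 0.437% and 0.406% of all counts on nuclear protein-coding genes. By counts it ranked 7 among them in replicate 1 and 5 in replicate 2. The 4 oxidase genes together held 8.87% as many counts as Xdh in replicate 1 and 10.2% in replicate 2. The level was 625 ± 98.1 TPM in the gene table and 538 ± 85.5 TPM in the second table, where replicate 1 was at 477 and replicate 2 at 598 TPM. The direction between libraries thus turned round with the table, as it did for Cybb, Cyba and Ncf4. The share of all TPM on nuclear protein-coding genes was 26.2% (replicate 1) and 24.6% (replicate 2) by the gene table, but 25.2% and 37.1% by the second. On TPM rescaled to those genes, both tables had Xdh, Cybb, Cyba and Ncf4 lower in replicate 2 and Ncf1 higher.

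A single transcript took most of the Xdh counts, though not most of its TPM. Xdh-206, annotated as retained_intron, held 19048 counts (67.6%) in replicate 1 and 26755 counts (72.9%) in replicate 2. The coding transcript Xdh-201, which encodes the enzyme in 36 exons, held 7968 counts (28.3%) in replicate 1 and 8542 counts (23.3%) in replicate 2. The shares of the 2 transcripts do not overlap, and the second table gave Xdh-206 63.7% and 70.3% of counts. As a share of the TPM of Xdh, which weights this long transcript less, Xdh-206 took 35.1% in replicate 1 and 41.2% in replicate 2, and 27.3% and 32.4% in the second table. Xdh-207, of 840 bases, took 12.9% and 14.3% of TPM in the first transcript table and was named after its values were seen. The other 12 Xdh transcripts each held 2% or less of counts in either library, and 3 of them had none in the first transcript table. Xdh-206 has the same exons as Xdh-201 but for its ends and 1 change: exon 34 runs on for 3225 bases of the 4591-base intron 34 and is then joined to exon 35. It is not a transcript with all introns kept. The pseudogene CT025731.2, of 662 bases on the same strand, lies within Xdh and held 263 counts in replicate 1 and 283 in replicate 2, few beside the Xdh counts.

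Here small letters are the 20 bases before each junction and capitals the 20 bases after it; the read-through stretch is chr17:73891091-73891130, minus strand.
Xdh-201, exon 34 to exon 35: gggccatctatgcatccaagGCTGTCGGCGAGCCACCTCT
Xdh-206, exon 34 into intron 34: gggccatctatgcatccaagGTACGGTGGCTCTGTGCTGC
Xdh-206, lengthened exon to exon 35: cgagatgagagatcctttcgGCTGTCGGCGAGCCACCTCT
The first and last lines share their capitals, the start of exon 35, and differ in the exon end before it. The first and second share their small letters and part at the donor site.

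**Figure D2:**
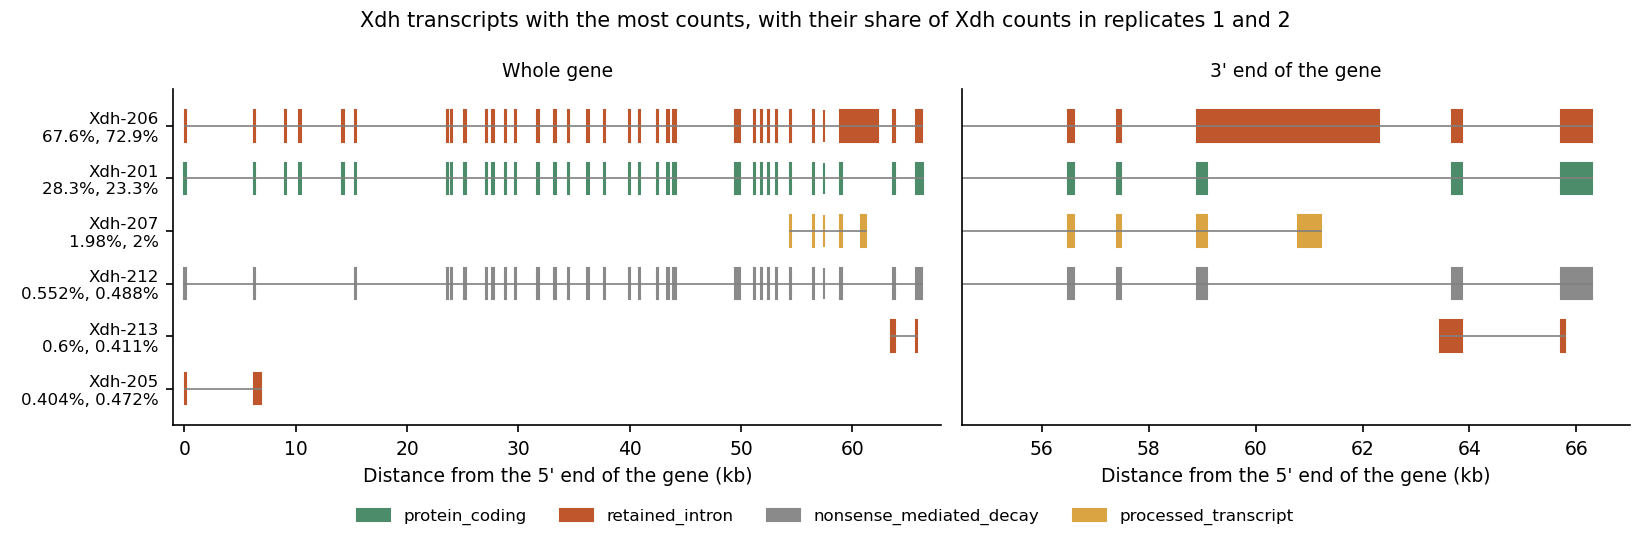
Exons (boxes) and introns (lines) of the 6 Xdh transcripts with the most counts, by distance from the 5′ end of the gene in kb, coloured by annotated class, with the share of Xdh counts in replicates 1 and 2 beside each name. The long box of Xdh-206 near the 3′ end is the part of intron 34 that this transcript holds.

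The tables can give a read only to an annotated transcript, so what they show of introns depends on the annotation. The 35 introns of Xdh-201 span 61688 bases, and 7.39% of these bases lie in an exon of any annotated Xdh transcript. For Cybb the share was 3.41% of 29321 bases, for Cyba 3.98% of 7411, for Ncf4 3.41% of 16316 and for Ncf1 11.1% of 6645. Reads from the other intron bases have no transcript of the same gene to count for. Per kilobase of transcript, Xdh-206 held 2450 counts in replicate 1 and 3441 in replicate 2, and Xdh-201 held 1732 and 1857.

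Over 5042 nuclear protein-coding genes with an annotated retained_intron transcript and at least 100 counts in each library, the median share of counts on such transcripts was 31.2%, and 28.5% of genes had 50% or more in both libraries. Of the 4 genes with such a transcript, 1 did: Xdh, at 71.4 ± 3.63%, stood at percentile 87.6. Ncf4 (37.3 ± 1.94%) stood at percentile 56.8, Cybb (17.5 ± 1.33%) at 32.8 and Ncf1 (12.2 ± 2.04%) at 24.4. The Ncf1 share leaves out Ncf1-205, which keeps intron 10 but is annotated as protein_coding. In the second table the shares of counts off the protein_coding class were higher for the oxidase genes, by over 1.5 times for Cyba (47.3 ± 0.51%, against 19.7 ± 1.66% in the first table) and Ncf1 (24.9 ± 3.29%, against 12.5 ± 2.56%). For Xdh they were 72.7 ± 4.41% in the second table and 74.2 ± 3.51% in the first. Exact (Clopper-Pearson) 95% intervals of the Xdh share in the first table were 71.2 to 72.3% in replicate 1 and 76.3 to 77.1% in replicate 2. They cover counting error only, and the libraries differed by more than that.

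On protein_coding transcripts alone, in the first transcript table, Xdh remained the highest of the 5 genes, at 176 TPM in replicate 1 and 127 TPM in replicate 2. This was 5.04 times Cyba and 5.28 times Ncf1 in replicate 1, and 4.22 and 3.03 times in replicate 2. Over Cybb it was 11.7 times in replicate 1 and 9.22 times in replicate 2. In the second table this class put Xdh at 109 and 117 TPM in replicates 1 and 2. Cyba, the next highest, was at 39.2 and 54.8 TPM there, so its gap to Xdh was smaller.

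**Figure D3:**
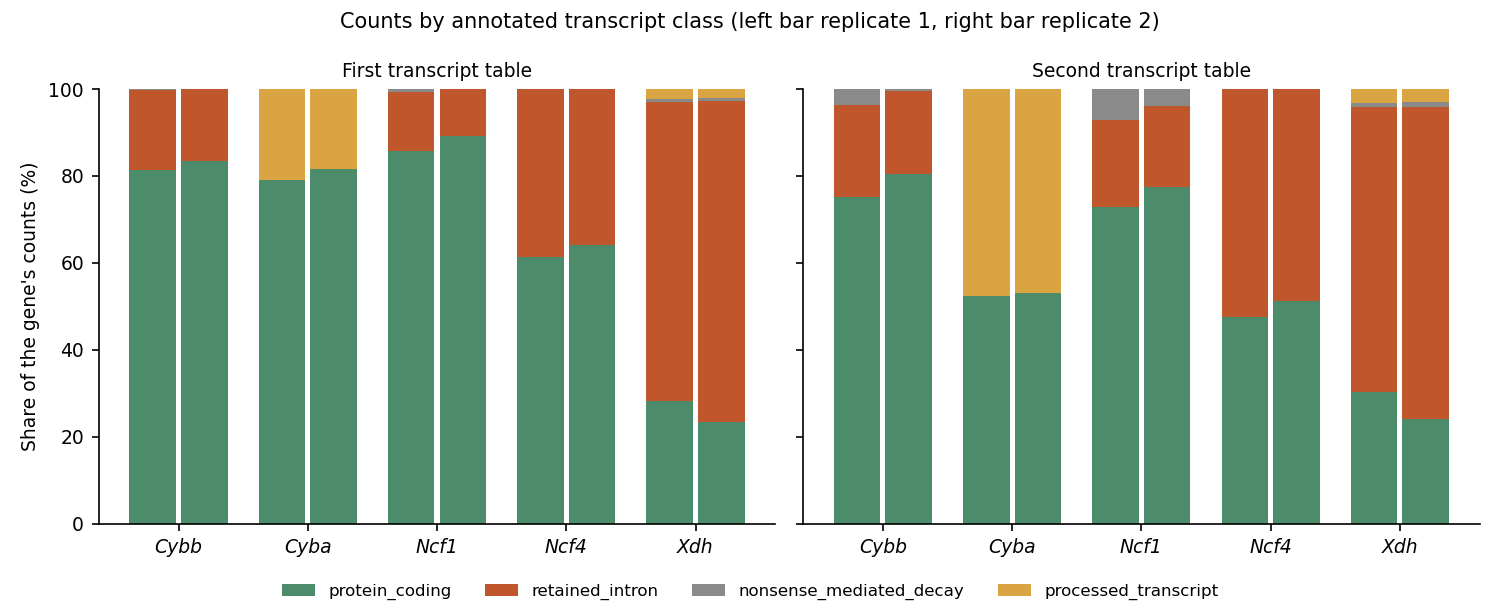
Share of each gene's counts, in percent, by annotated transcript class, with the left bar for replicate 1 and the right bar for replicate 2, in the first and the second transcript table. Retained_intron transcripts take most Xdh counts in both tables, and the protein_coding share of the 4 oxidase genes is lower in the second table.

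After TMM scaling, the log2 ratio of replicate 2 over replicate 1 was -0.09 for Cybb, -0.20 for Cyba, -0.20 for Ncf4, -0.12 for Xdh and 0.35 for Ncf1. None of the 5 reached 2-fold in either direction, a size that 0.373% of the 10984 genes averaging 50 counts or more reached. The median absolute log2 ratio of those genes was 0.14. Ncf1 was the farthest from 0, at percentile 91.8 of all ratios, with an interval of 0.24 to 0.46 from counting error alone. With 1 group there is no test of a condition here. When libraries were scaled by total counts the ratio was 0.04 for Cybb and 0.0060 for Xdh, so neither direction was settled, and the counting intervals of Cybb and Cyba after TMM scaling, -0.22 to 0.04 and -0.46 to 0.05, include 0.

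**Figure D4:**
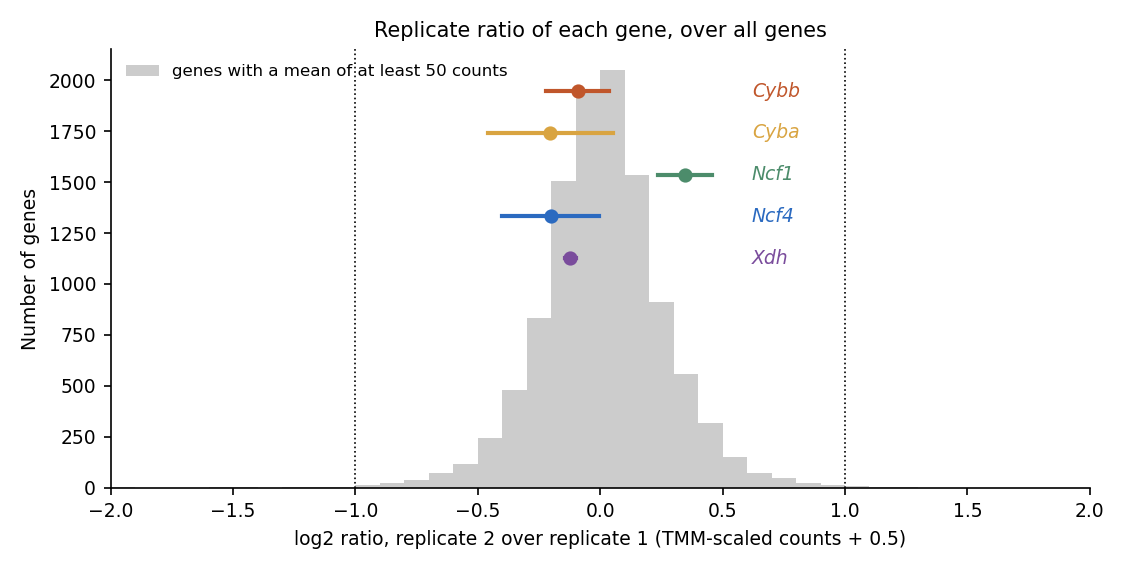
Histogram of the log2 ratio of replicate 2 over replicate 1 on TMM-scaled counts plus 0.5, over 10984 genes averaging 50 counts or more, with each of the 5 genes as a point with its 95% counting interval at an arbitrary height. Dotted lines mark 2-fold; the 5 genes lie inside them, with Ncf1 to the right of the others.

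All 5 partner genes of the phagocyte oxidase examined here were detected, beside 46.7% of nuclear protein-coding genes. Their median level was 9.87 ± 1.99 TPM, beside 0.72 TPM over all nuclear protein-coding genes, silent ones included. In replicate 1 their median was 11.0 TPM and in replicate 2 it was 8.21 TPM, and the detected nuclear protein-coding genes had medians of 11.3 and 10.8 TPM. The partners thus did not stand above detected genes in the gene table. Each lay below the 4 oxidase subunit genes in the gene table. Cybc1, the chaperone that Cybb protein needs to mature, was at 14.6 ± 0.764 TPM. The GTPase genes were lower, with Rap1a at 11.4 ± 0.509 TPM, Rac1 at 9.87 ± 2.34 TPM and Rac2, the form typical of blood cells, at 8.21 ± 0.658 TPM. Hvcn1, a proton channel that offsets the charge the oxidase moves, was at 9.13 ± 1.46 TPM. In the second table Rac2 (66.3 TPM), Rac1 (53.2 TPM) and Rap1a (47.5 TPM) were higher and the list median was 47.5 TPM. By mean these GTPase genes lay above Cybb there (44.5 TPM), and Rac2 also lay above Ncf1 (65.8 TPM). Rap1a was below Cybb in replicate 1 (37.7 against 39.9 TPM). Rac2 was below Ncf1 in replicate 2 (79.2 against 82.0 TPM), so neither of these pairs was resolved. Cybc1 (18.1 TPM) and Hvcn1 (13.3 TPM) stayed below the oxidase subunit genes.

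All 12 regulators of oxidase assembly were detected (median 19.4 ± 0.209 TPM), beside 46.7% of nuclear protein-coding genes. Prkcd, protein kinase C delta, which phosphorylates p47phox, was the highest at 271 ± 4.80 TPM, followed by Vav3, a Rac exchange factor, at 92.5 ± 3.8 TPM, and Prkca was the lowest at 1.48 ± 0.424 TPM. Of 9 genes of other NADPH oxidases and their partners, 1 was detected in the gene table, Noxo1, an organiser related to p47phox, at 2.39 TPM in replicate 1 and 1.48 TPM in replicate 2. In the second table Noxo1 was at 0.773 and 1.51 TPM and was not detected. Next was Nox1, the colon oxidase, at 0.51 and 0.04 TPM in replicates 1 and 2, and at 1.02 and 1.32 TPM in the second table, where it passed. Noxa1, Duox2, Duoxa1 and Duoxa2 had no read in either library. Nox4 held 1 count in replicate 1 and 0 in replicate 2 in the gene table, while the second table put it at a mean of 8.74 TPM; it was named after its values were seen. Where no read was counted, the limit at 3 counts is 0.273 RPM (reads scaled to depth) in replicate 1 and 0.211 in replicate 2, by counting error only and with no bound on reads placed elsewhere.

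**Figure D5:**
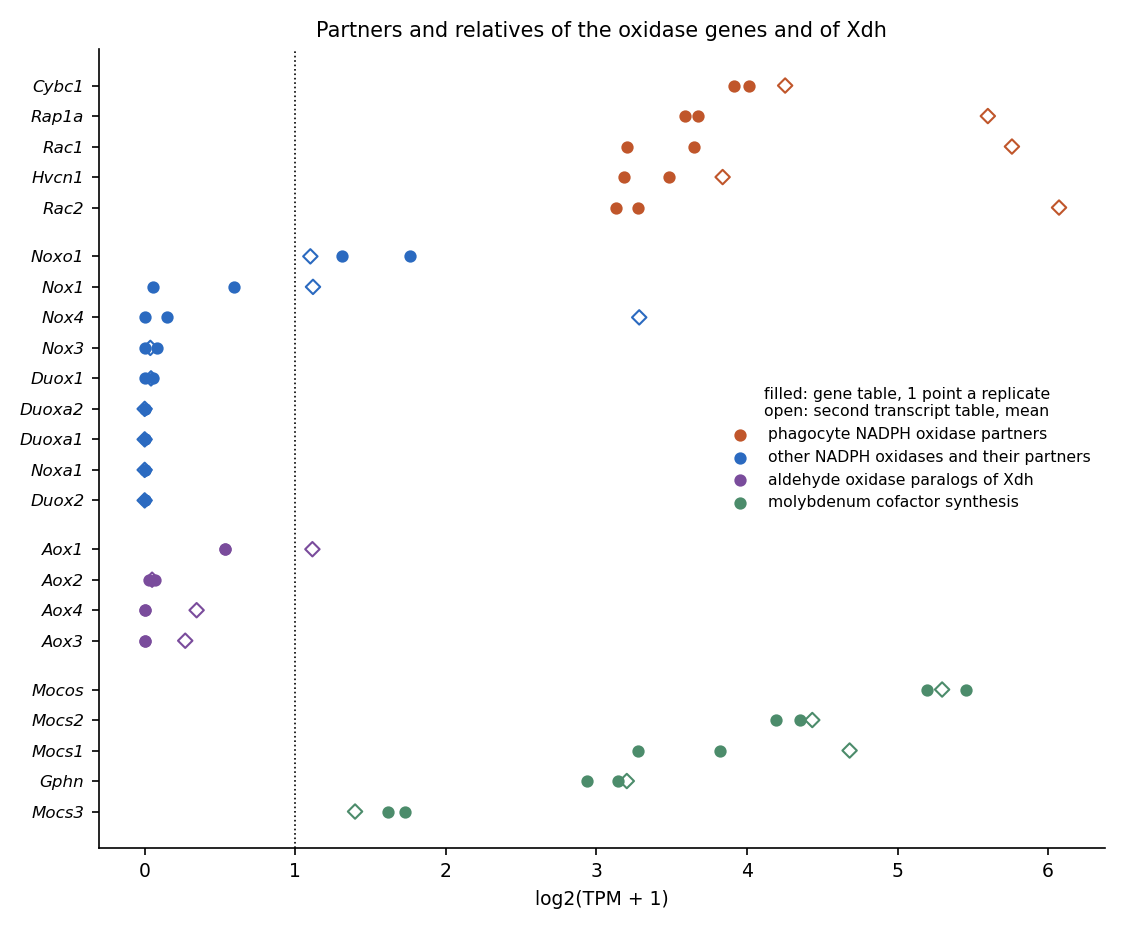
Levels on a log2(TPM + 1) scale for genes of the phagocyte oxidase, other NADPH oxidases, the aldehyde oxidase paralogs of Xdh and molybdenum cofactor synthesis, with filled points for the 2 libraries of the gene table and open diamonds for the mean of the second table. The dotted line is 1 TPM; Rac1, Rac2, Rap1a and Nox4 have diamonds well to the right of their points.

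Around Xdh, the genes that make its cofactor were detected and its close paralogs were not. The share detected over all nuclear protein-coding genes was 46.7% in the gene table and 55.5% in the second table. The 4 aldehyde oxidase genes descend from the same ancestor as Xdh and use the same molybdenum cofactor. In the gene table none reached 1 TPM: Aox1 was at 0.45 TPM in both libraries, Aox2 at 0.02 and 0.05 TPM, and Aox3 and Aox4 had no read. In the second table Aox1 was at 0.839 TPM in replicate 1 and 1.49 TPM in replicate 2, so it passed in replicate 2 only. Aox3 and Aox4 had means of 0.205 and 0.270 TPM there, and none of the paralogs was detected in both libraries. All 5 genes of cofactor synthesis were detected (median 10.9 ± 3.13 TPM), led by Mocos, the sulfurase that completes the cofactor of Xdh and the aldehyde oxidases, at 39.2 ± 5.17 TPM, and Mocs2 at 18.4 ± 1.53 TPM, with Mocs3 lowest at 2.19 ± 0.177 TPM. The list median was near that of detected nuclear protein-coding genes, 11.3 TPM in replicate 1 and 10.8 TPM in replicate 2.

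Genes of purine breakdown and salvage lay far below Xdh. Of 15, 11 were detected (median 12.6 ± 2.07 TPM). The highest were Nt5c2, a nucleotidase acting on IMP (62.7 ± 10.5 TPM), and Ampd3, AMP deaminase (26.7 ± 5.12 TPM). Uox, urate oxidase, which takes on the uric acid that Xdh makes, had no read in the gene table, though the second table gave it 3.49 TPM, and Allc had no read. Of 14 genes that remove superoxide and peroxide, 13 were detected (median 9.51 ± 0.435 TPM), led by Prdx1, a peroxiredoxin (70.3 ± 7.5 TPM), and Txnrd1, thioredoxin reductase (34.5 ± 6.84 TPM), while the extracellular dismutase gene Sod3 had no read. Over all nuclear protein-coding genes 46.7% were detected in the gene table. The detected ones had medians of 11.3 TPM in replicate 1 and 10.8 TPM in replicate 2.

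The protein-coding genes nearest in level to each of the 5, by mean log2 TPM over the 2 libraries, were Slc36a1 and Trps1 for Cybb, Ifi27 and Canx for Cyba, 9930111J21Rik1 and Zfand5 for Ncf1, and Tef and Herc6 for Ncf4, with gaps of 0.0022 or less. For Xdh they were Rbm39 above it, at 660 TPM in replicate 1 and 602 TPM in replicate 2, with a gap of 0.02, and Ctsb below it, at 635 and 509 TPM, with a gap of 0.13. With 2 libraries of 1 group this is likeness in level only.

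Promoter sequences were matched in the RefSeq table (GRCm38.p6, the assembly of mm10) for 3 of the 5 genes, Cybb, Cyba and Ncf1. They are shown because the starts of these genes differ in composition. Each is 250 bases before and 50 bases after the annotated start, 5′ to 3′ on the gene's strand; capitals mark GAGGAA, the core of the site of the myeloid factor PU.1, or its reverse complement TTCCTC.
Cybb, chrX:9469275-9469574, minus strand: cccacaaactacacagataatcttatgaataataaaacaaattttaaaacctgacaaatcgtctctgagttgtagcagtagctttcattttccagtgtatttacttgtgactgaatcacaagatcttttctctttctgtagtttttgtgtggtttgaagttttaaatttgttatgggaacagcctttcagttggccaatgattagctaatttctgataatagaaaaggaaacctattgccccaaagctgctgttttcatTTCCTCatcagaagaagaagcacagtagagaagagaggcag
Cyba, chr8:122432891-122433190, minus strand: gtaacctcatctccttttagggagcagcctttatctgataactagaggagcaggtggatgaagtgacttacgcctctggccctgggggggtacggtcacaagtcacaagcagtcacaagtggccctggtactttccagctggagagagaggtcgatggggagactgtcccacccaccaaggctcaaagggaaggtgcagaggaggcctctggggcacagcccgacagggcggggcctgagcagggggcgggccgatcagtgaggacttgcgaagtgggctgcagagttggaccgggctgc
Ncf1, chr5:134229576-134229875, minus strand: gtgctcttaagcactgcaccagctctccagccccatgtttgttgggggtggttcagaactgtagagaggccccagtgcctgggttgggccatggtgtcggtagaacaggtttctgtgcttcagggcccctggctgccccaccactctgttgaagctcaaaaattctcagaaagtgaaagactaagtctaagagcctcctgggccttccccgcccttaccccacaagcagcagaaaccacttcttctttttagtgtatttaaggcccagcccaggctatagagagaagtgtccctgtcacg
The GC share was 35.3% for Cybb, 60.7% for Cyba and 54.0% for Ncf1. GAGGAA was found on either strand in 28.3% of 32851 RefSeq promoter windows, and of these 3 it was found in Cybb, once, on the reverse strand, from position 260 of the window. CCAAT was also found in Cybb alone of the 3 and in 37.4% of all windows, and TATAAA in none of the 3 and in 13.6% of all. A match is a description of the letters, not of binding.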

How the data were processed

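The authors deposited a gene table and 2 kinds of transcript table for each of 2 libraries of total RNA from the chromatin fraction, all on mm10 with GENCODE M21, per the notes deposited with the files. Per those notes, an alignment to transcripts gave the gene values and those of the first transcript table (RSEM column layout), while the second table (kallisto column layout) came straight from reads. The sources used here name no tool version. The authors deposited expected counts, not whole numbers, and TPM, which they scaled to the same sum in each table.

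Gene entries were matched to the annotation; 26345 entries with no gene there, with 0.338% and 0.270% of counts in replicates 1 and 2, were left out. Detected means 1 TPM or more in both libraries. Expected counts were rounded for scaling factors from edgeR 4.0.16 (TMM, with its filter on low counts) and DESeq2 1.42.0 in R 4.3.3; ratios add 0.5 to scaled counts. No p-value was computed, since there is 1 group. The ratio step was tested on simulated counts. A transcript was named at 5% or more of its gene's counts in either library; lists name their 2 highest genes and the lowest, and all of the oxidase partner and aldehyde oxidase lists, with a few others chosen after values were seen. An item of the oxidase partner list is not reported here. The members and gene lists were chosen with earlier results of these data known. Python 3.11.15, numpy 2.4.6, pandas 2.3.3 and scipy 1.17.1 were used.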

Additional observations from a re-analysis of the deposited data

How the results depend on the processing

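No paired analysis was possible because there is only 1 group. Leaving out a replicate gave 36.7 to 46.1 TPM for Cybb, 37.7 to 45.5 for Cyba, 60.5 to 69.3 for Ncf1, 51.5 to 58.8 for Ncf4 and 556 to 695 for Xdh, and with 2 libraries such values lie within 1 SD of the mean by construction. Xdh stayed the highest of the 5 genes in each table and scaling. In the second transcript table Cyba was at 90.8 TPM and Ncf4 at 82.9; the other 3 levels moved by less than 1 SD, and so did all 5 with posterior mean TPM. Rescaled to nuclear protein-coding genes, which multiplies every gene of a library alike, levels were 163, 164, 256, 217 and 2457 for Cybb, Cyba, Ncf1, Ncf4 and Xdh, and in the second table, an alternative added after seeing the data, 145, 293, 209, 266 and 1752. The log2 ratio of replicates was 0.47 for Ncf1 and 0.0060 for Xdh with total counts, and 0.23 and -0.10 in the second table; with total counts Cybb also changed sign, to 0.04, within its counting interval; from TPM rescaled to nuclear protein-coding genes, also added later, it was -0.24 for Cybb and -0.23 for Xdh. DESeq2 factors, a pseudocount of 5 and no filter on low counts moved no ratio out of its counting interval. The share of counts off the protein_coding class was 22.2% for Cybb, 47.3% for Cyba, 24.9% for Ncf1 and 50.6% for Ncf4 in the second table. As a share of TPM it was 64.9%, 21.8%, 42.2% and 68.3% for the same genes. Counting transcripts with intron bases it was 42.3% for Ncf1. The causes were not tested, beyond the length division in TPM. The count of detected genes over the 7 pathway lists was 47 of 64, beside 46.7% of nuclear protein-coding genes. It was 41 at 2 TPM and 50 in the second table, and stayed at 47 under the other alternatives. For other NADPH oxidases the count was 0 at 2 TPM, and 2 in the second table (Nox1 and Nox4, with Noxo1 lost), against 1 (Noxo1). Low counts limit Cyba and Ncf4 most, at 231 to 469 per library.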
